A study of Mus musculus with 10 samples.

Results

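The 5 genes described here form the arm of transcription that reads intracellular glucose, and were selected by symbol from the 39017 genes of the deposited count table. They are Mlxip, which encodes the transcription factor MondoA, Mlxipl, which encodes its relative ChREBP, Mlx, the gene of their shared partner, and the target genes Txnip and Arrdc4. Each symbol occurred once, and all 5 were among the 15922 genes with enough counts to be tested. They were followed in 10 RNA sequencing libraries of mouse lung tumours, next to Slc2a1, which encodes the transporter Glut1. The comparison asks whether this glucose-responsive arm differs when the tumours lose Glut1.

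All samples were labelled C57BL/6 (C57BL6/J in the protocol for KP and KPG1 mice), and all mice carried the allele K-rasLSL-G12D/WT together with p53Fl/Fl (KP). KPG1 mice carried Glut1Fl/Fl in addition. Tumours were initiated with the adenovirus Ad5CC10-Cre, given into the trachea, whose promoter restricts Cre to cells positive for CC10, a marker of airway club cells. Lung tumours were macrodissected 20 weeks and 1 day later, dissociated, and depleted of immune cells with beads against CD45, so the RNA came from every CD45-negative cell of the lesion and not from tumour cells alone. The 5 KP control libraries were labelled male and heterozygous fl/wt, which the design text calls Glut1-WT. By the study's methods its controls had both Slc2a1 copies intact or 1 floxed copy. The 5 libraries labelled Glut1-KO were homozygous fl/fl, with replicates 1 to 3 labelled female and replicates 4 and 5 male. The age of the mice at initiation is not given in the sources used here. No label says whether replicates came from separate animals, so p-values measure the spread between these libraries. File names held an additional number per library, possibly that of the animal, but no label explains it. Control replicates 1, 2 and 5 shared one such number, control replicates 3 and 4 another, and Glut1-KO replicates 4 and 5 a further one, which makes 6 numbers for 10 libraries. If these numbers mark animals, the libraries are not independent and the p-values below are too small.

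Glucose that enters a cell is phosphorylated by hexokinases, and the resulting sugar phosphates drive MondoA and ChREBP into the nucleus. There each pairs with Mlx and binds the carbohydrate response element, an arrangement of 2 E-box-like half-sites a few bases apart. Txnip and Arrdc4, both α-arrestins, are among the best known targets of MondoA, and Txnip in turn promotes removal of Glut1 from the cell surface. ChREBP is best known from liver and fat, where it activates glycolytic and lipogenic enzymes, whereas MondoA is widely expressed.

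The promoters of these genes are shown because Txnip is known to respond to glucose through a carbohydrate response element close to its start. Sequences were taken from RefSeq on GRCm38.p6, which had windows for all 5 genes, from 250 bases before to 50 bases after a start site. Half-sites were searched as CACGNG and CNCGTG, which are reverse complements of each other and therefore cover both strands, and the E-box CACGTG is contained in both. The first line gives the 250 bases before the Txnip start at chr3:96557707-96557956 (plus strand), and the second those before the Arrdc4 start at chr7:68749239-68749488 (minus strand, written in the sense of the gene). Further lines give the upstream one of the annotated Mlxipl starts at chr5:135089640-135089889 and the Mlx start at chr11:101087040-101087289, both plus strand. Capitals mark half-sites.
Txnip: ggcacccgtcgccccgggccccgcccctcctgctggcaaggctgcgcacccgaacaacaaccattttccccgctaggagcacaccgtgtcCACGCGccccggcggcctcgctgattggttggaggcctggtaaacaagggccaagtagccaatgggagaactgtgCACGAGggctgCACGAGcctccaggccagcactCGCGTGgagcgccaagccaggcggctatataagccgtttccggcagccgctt
Arrdc4: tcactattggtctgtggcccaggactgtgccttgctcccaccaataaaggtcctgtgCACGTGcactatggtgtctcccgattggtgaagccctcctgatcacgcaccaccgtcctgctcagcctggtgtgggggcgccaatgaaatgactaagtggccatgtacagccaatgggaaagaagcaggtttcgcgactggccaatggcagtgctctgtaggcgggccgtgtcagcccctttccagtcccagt
Mlxipl: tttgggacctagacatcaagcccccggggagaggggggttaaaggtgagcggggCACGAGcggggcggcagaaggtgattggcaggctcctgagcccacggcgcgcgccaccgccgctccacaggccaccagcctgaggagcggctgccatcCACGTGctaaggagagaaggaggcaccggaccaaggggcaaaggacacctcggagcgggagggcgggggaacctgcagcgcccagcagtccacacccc
Mlx: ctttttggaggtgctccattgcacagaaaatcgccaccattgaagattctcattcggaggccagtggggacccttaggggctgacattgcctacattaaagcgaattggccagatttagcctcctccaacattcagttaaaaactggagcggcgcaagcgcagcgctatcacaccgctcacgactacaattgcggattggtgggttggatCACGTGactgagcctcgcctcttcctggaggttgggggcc

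The Txnip window held 4 half-sites, beginning at positions -160, -85, -74 and -52 from the start. The middle pair, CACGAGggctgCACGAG at chr3:96557872-96557888, had its half-sites exactly 5 bases apart. Such a pair occurred in 27 of 32817 RefSeq promoter windows of 300 bases (0.0823%), and this form of the search was chosen with the Txnip element known. Arrdc4 held 1 E-box at position -193, and the upstream Mlxipl start held 1 E-box at -98 and 1 further half-site at -196. Mlx held 1 E-box at -40. An E-box was present in 7.15% of the windows, and any half-site in 27.5%. The Mlxip window and the window of the other Mlxipl start, 17001 bases downstream, held 0 half-sites, which says only that these letters are not in those 300 bases.

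**Figure D1:**
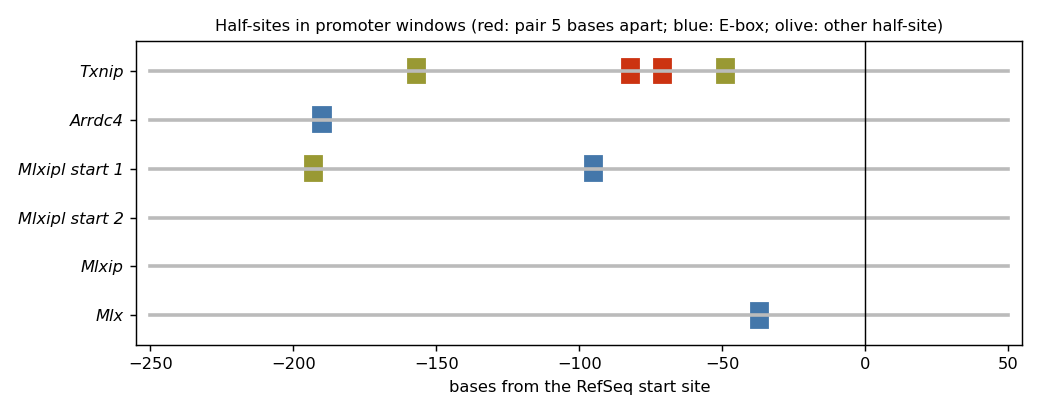
Positions of half-sites in the promoter windows of the 5 genes; the horizontal axis is the distance in bases from the RefSeq start site (vertical line), each row is a window, and each box is 1 half-site of 6 bases, red for a pair 5 bases apart, blue for an E-box and olive for any other half-site. The only red pair lies in Txnip, at -85 and -74.

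Each library held 35.3 to 49.8 M counts, where M stands for mega. The mean was 42.7 ± 4.0 M in controls and 40.9 ± 3.8 M under the Glut1-KO label (SD, n = 5 each). Levels are given as CPM, counts per M after TMM scaling. The lung epithelial marker Epcam stood between 352 and 619 CPM in all 10 libraries and the alveolar marker Sftpc between 6329 and 36607 CPM, while the immune gene Ptprc (CD45) stayed at 2.3 to 3.26 CPM in controls and reached 5.05 to 10.1 CPM in the other group. Scgb1a1, the gene of CC10, ranged from 704 to 8732 CPM.

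The deleted gene did not separate the groups. Slc2a1 (ENSMUSG00000028645, protein-coding, chromosome 4 from 119108711 to 119137983, plus strand, GRCm38) had 118, 86.7, 92.6, 103 and 73.2 CPM in control replicates 1 to 5. The libraries labelled Glut1-KO had 60.3, 42.5 and 34.6 CPM in the female replicates 1 to 3 and 92.4 and 103 CPM in the male replicates 4 and 5. The 3 female libraries lay below every control and the 2 male libraries within the control range. Because Slc2a1 goes against the label in replicates 4 and 5, every direction below refers to the libraries labelled Glut1-KO and rests on the labels. Counts per gene do not separate full transcripts from those without the floxed exons. The log2 fold change was -0.62 (SE 0.29) with a limma adjusted p of 0.658, and the 2-sided exact permutation test gave a p of 0.0952. With male libraries only the log2 fold change was 0.06 (SE 0.19).

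Of the 5 genes, 0 passed the threshold of 0.05 after Benjamini-Hochberg adjustment over all genes, where limma called 0 of 15922 genes (0%). At an unadjusted p under 0.05 limma found 1223 genes (7.68%, made up of 3.66% that were higher under the Glut1-KO label and 4.02% that were lower), among them 0 of the 5. DESeq2 called 210 genes (1.32%) and edgeR's quasi-likelihood test 0, and at an unadjusted p under 0.05 these tools found 10.8% and 8.85% of the genes, again with 0 of the 5 among them. In 0 of the 5 genes did the groups separate without overlap, which was the case for 1.85% of all genes tested. The median log2 fold change of the 5 genes was -0.24, and that of all genes tested was -0.0049. The target genes Txnip and Arrdc4 varied more from library to library than the factors Mlxip and Mlx, and they did so mainly within the Glut1-KO group.

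Txnip was by far the most abundant of the 5. Its protein binds thioredoxin and restrains glucose uptake. The gene (ENSMUSG00000038393, protein-coding) occupies bases 96557957 to 96561883 of chromosome 3, plus strand, in GRCm38. Control replicates 1 to 5 had 809, 641, 1508, 838 and 893 CPM. Replicates 1 to 5 labelled Glut1-KO had 639, 1378, 1207, 289 and 326 CPM. The male replicates 4 and 5 thus stood below all other libraries, replicate 1 lay just under the lowest control, and replicates 2 and 3, which had the least Slc2a1, were within the control range and below only control replicate 3. Group means were 938 ± 333 and 768 ± 501 CPM (SD, n = 5 each). The log2 fold change was -0.52 (SE 0.45, 95% interval -1.51 to 0.46), with a limma adjusted p of 0.799, and the exact permutation test gave 0.357. A halving and a modest rise both lie within that interval.

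The result for Txnip depended on which libraries labelled Glut1-KO entered. With male libraries only, the 2 male libraries against the 5 controls gave a log2 fold change of -1.55 (SE 0.29), unadjusted p 0.000751 and adjusted p 0.315 (limma). In that fit 0.00597% of genes were called and 3.87% were lower at an unadjusted p under 0.05, a set that held Txnip and Arrdc4. With sex as a covariate, which rests on the same male pair, the log2 fold change was -1.55 too (limma adjusted p 0.222, with 0.0188% of genes called and 4.87% lower at an unadjusted p under 0.05). With the 3 female libraries against the same male controls the log2 fold change was 0.19 (SE 0.32, limma adjusted p 0.823), where 0.0548% of genes were called and 6.24% were lower at an unadjusted p under 0.05, with 0 of the 5 genes among either. The male pair shares a file-name number and no control was female, so sex, a possible shared animal and retained Slc2a1 cannot be told apart in these values. When libraries with the same number were summed, the log2 fold change was -0.28.

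Arrdc4, the closest glucose-responsive relative of Txnip among the α-arrestins, also varied most in the Glut1-KO group. It (ENSMUSG00000042659, protein-coding) occupies bases 68736995 to 68749241 of chromosome 7, minus strand. Controls had 40.5, 38.7, 30.2, 29.3 and 30.9 CPM in replicates 1 to 5. The libraries labelled Glut1-KO had 14.7, 36.7, 40.3, 16.7 and 13.3 CPM. Replicates 1, 4 and 5 fell below every control, while replicates 2 and 3 lay within the control range, so the libraries split in the same places as for Txnip, except that replicate 1 was as low as the male pair. Means were 33.9 ± 5.3 CPM and 24.4 ± 13.0 CPM (SD, n = 5 each). The log2 fold change was -0.62 (SE 0.31, 95% interval -1.29 to 0.06), with a limma adjusted p of 0.677, and the exact permutation test gave 0.135. The male libraries alone gave -1.19 (SE 0.22, limma adjusted p 0.315), and the female libraries against the controls gave -0.26 (SE 0.32, limma adjusted p 0.733).

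**Figure D2:**
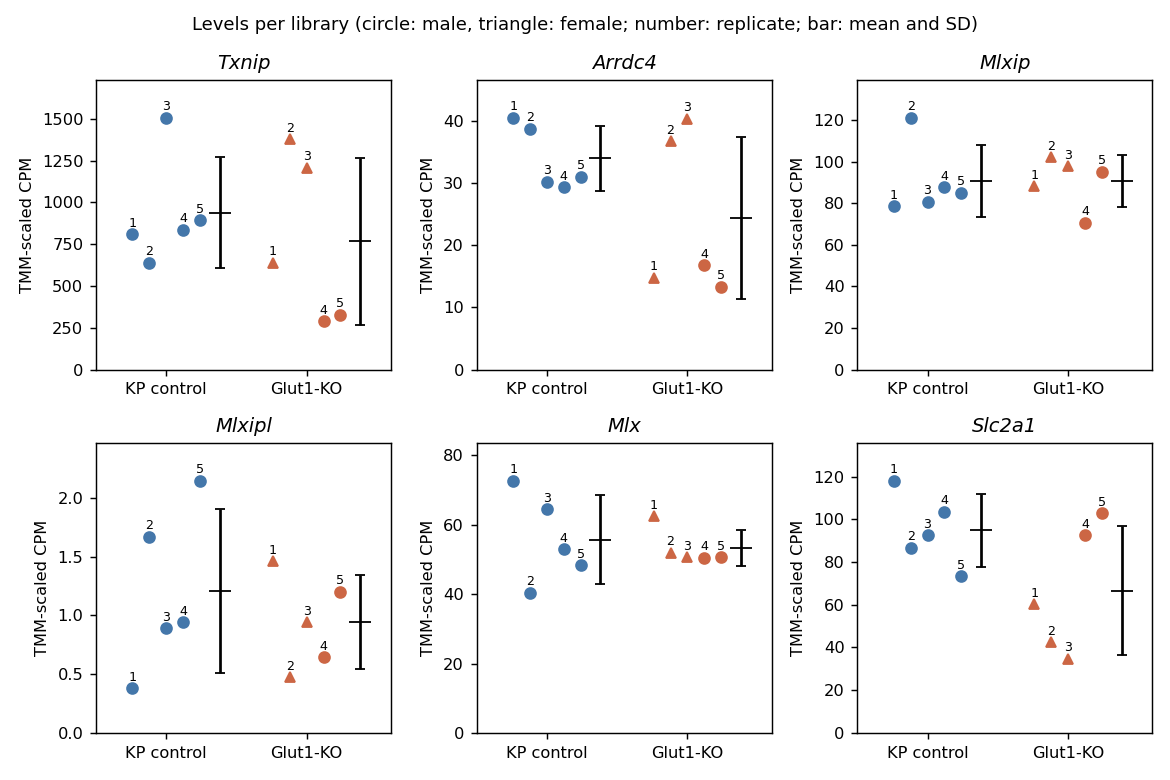
TMM-scaled CPM (vertical axes, linear from 0) of the 5 genes and of Slc2a1 in each library; circles are male and triangles female libraries, numbers are replicates, and the black bar is the mean with its SD (n = 5). Glut1-KO replicates 4 and 5 are the lowest in Txnip, at 289 and 326 CPM, whereas their Slc2a1 lies in the control range.

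Mlxip, the gene of MondoA, was similar in both groups. It (ENSMUSG00000038342, protein-coding) occupies bases 123394798 to 123457932 of chromosome 5, plus strand. Controls had 78.5, 121, 80.6, 87.7 and 85.0 CPM, and the libraries labelled Glut1-KO 88.1, 102, 97.7, 70.5 and 95 CPM. Control replicate 2 was the highest and Glut1-KO replicate 4 the lowest, and the other 8 lay between. Means were 90.6 ± 17.5 and 90.7 ± 12.3 CPM (SD, n = 5 each). The difference on the log2 scale was 0.01 (SE 0.15, 95% interval -0.31 to 0.33, limma adjusted p 0.991, exact permutation p 0.944). The direction of so small a value is not stable: it was below 0 with library totals in place of TMM.

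Mlx, the obligate partner, was the other steady gene. It (ENSMUSG00000017801, protein-coding) occupies bases 101087277 to 101092207 of chromosome 11, plus strand. Controls had 72.7, 40.4, 64.4, 52.9 and 48.3 CPM. The libraries labelled Glut1-KO had 62.5, 51.9, 50.6, 50.5 and 50.6 CPM, all inside the control range. Means were 55.7 ± 12.8 and 53.2 ± 5.2 CPM (SD, n = 5 each). The difference on the log2 scale was -0.04 (SE 0.16, 95% interval -0.39 to 0.32, limma adjusted p 0.972, exact permutation p 0.825). The intervals of Mlxip and Mlx leave out a doubling or a halving of either gene.

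Mlxipl, the gene of ChREBP, was barely detected. It (ENSMUSG00000005373, protein-coding) occupies bases 135089890 to 135138382 of chromosome 5, plus strand, and has 2 start sites in RefSeq that counts per gene do not separate. Between 15 and 90 reads per library fell on it. Controls had 0.38, 1.67, 0.889, 0.941 and 2.15 CPM, and the libraries labelled Glut1-KO 1.46, 0.475, 0.943, 0.644 and 1.20 CPM. The groups overlapped throughout, with control replicates 1 and 5 at the extremes. Means were 1.21 ± 0.70 and 0.945 ± 0.401 CPM (SD, n = 5 each), and the log2 fold change was -0.24 (SE 0.49, 95% interval -1.31 to 0.83, limma adjusted p 0.922, exact permutation p 0.651).

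**Figure D3:**
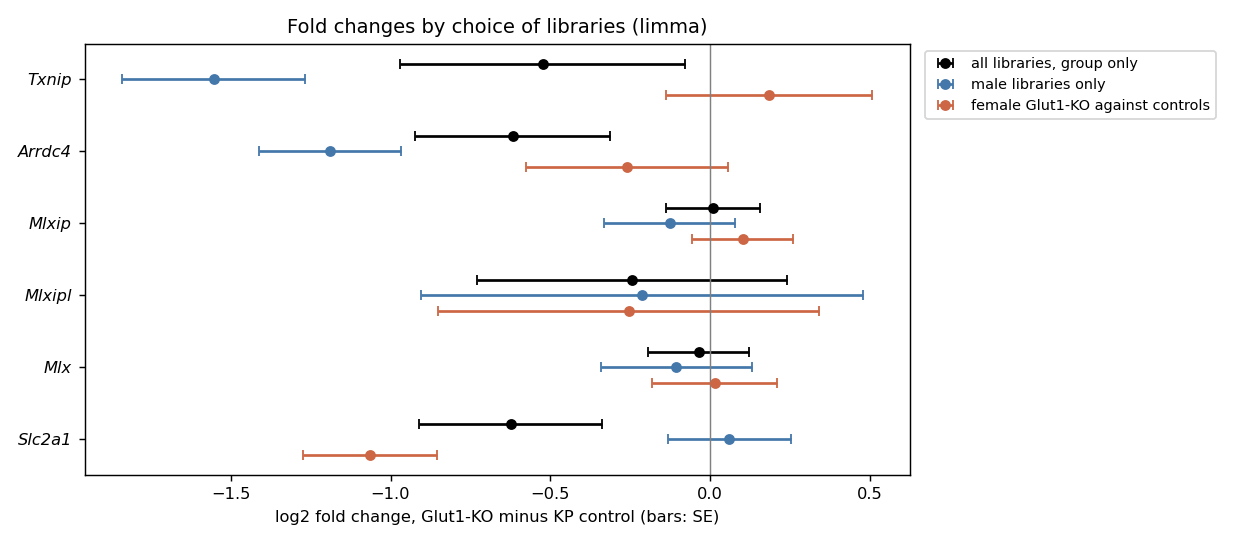
Log2 fold change, Glut1-KO minus KP control, with its SE (limma), for the 5 genes and Slc2a1 with all 10 libraries (black), male libraries only (blue, 2 against 5) and female Glut1-KO libraries against the male controls (orange, 3 against 5). Txnip moves from -1.55 to 0.19 between the latter choices while Slc2a1 moves the opposite way, from 0.06 to -1.07, and Mlxip, Mlxipl and Mlx stay within 0.26 of 0.

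Levels of different genes were compared per kb of exon (CPM per kb, over the union of GENCODE exons). Txnip averaged 273 CPM per kb over the 10 libraries, above 99.3% of the genes tested. Mlx followed with 27.3, Mlxip with 10.9, Arrdc4 with 7.21 and Mlxipl with 0.194 CPM per kb, the last above only 6.12% of the genes tested. The ranges of Txnip (92.7 to 483 CPM per kb) and Mlx (20.2 to 36.4 CPM per kb) met no other range. Mlxip, at 8.47 to 14.6 CPM per kb, and Arrdc4, at 3.30 to 10.03, were neighbours whose ranges overlapped. Mlxipl reached at most 0.387 CPM per kb. Per length, Mlxip exceeded Mlxipl by 26.3 to 143 times (median 61.1), which made it the more abundant sensor transcript in each of the 10 libraries. Txnip exceeded Arrdc4 by 21.4 to 64.7 times (median 37.2), with no difference between the groups that passed an exact permutation test on the log2 ratio (p 0.754).

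The spread within groups set the genes apart as well. The SD of log2 CPM within groups was 0.80 for Txnip, larger than in 83.0% of the genes tested, and 0.56 for Arrdc4, larger than in 70.5%. It was 0.23 for Mlxip and 0.25 for Mlx, larger than in 26.1% and 31.5%. The 0.81 of Mlxipl, larger than in 83.6%, stands beside counts of 15 to 90 per library, and the part of counting error in it was not tested. Between the lowest and the highest library Txnip varied 5.21 times and Arrdc4 3.04 times, against 1.72 times for Mlxip and 1.80 times for Mlx.

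Set beside Slc2a1 library by library, 0 of the 5 genes showed a relation that passed after adjustment. Txnip gave a Pearson r of -0.47 and a Spearman rho of -0.28 with Slc2a1 over the 10 libraries (log2 CPM, permutation p 0.149 and 0.425, adjusted over the 5 genes 0.691 and 0.531). Without Glut1-KO replicates 2 and 3, the libraries farthest from the median of Slc2a1, r was -0.06, so what relation there was rested on them. Arrdc4 gave an r of -0.25 and a rho of -0.15 (permutation p 0.531 and 0.685, adjusted 0.691 and 0.685), and r was 0.33 without those libraries. For Mlxip r was -0.38 and rho -0.54, for Mlx 0.22 and 0.42, and for Mlxipl -0.03 and -0.32, with permutation p-values between 0.114 and 0.937 and adjusted values of 0.531 or more. Without the same libraries r was -0.15 for Mlxip, 0.17 for Mlx and -0.71 for Mlxipl. Within the 7 male libraries r was -0.12 for Txnip, -0.05 for Arrdc4, -0.20 for Mlxip, 0.63 for Mlx and -0.82 for Mlxipl, and 0 of these 5 passed after adjustment (exact permutation, lowest adjusted p 0.117). Over the means by file-name number (n = 6) r was -0.58 for Txnip, -0.42 for Arrdc4, -0.81 for Mlxip, 0.20 for Mlx and 0.33 for Mlxipl, with rho of -0.54, -0.60, -0.83, 0.20 and -0.086, and 0 of these passed either (exact permutation, lowest adjusted p 0.333 for r and 0.292 for rho). The 3 female libraries were too few for a value of their own.

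Of the 10 pairs among the 5 genes, Txnip and Arrdc4 had the largest Pearson r in size over all 10 libraries, but not the largest rho. Over these libraries their Pearson r was 0.74 and their rho 0.50 (permutation p 0.0299 and 0.144), which did not pass after adjustment over the 10 pairs (0.274 and 0.718). Without Glut1-KO replicates 4 and 5, the libraries farthest from the median of Txnip, r was 0.37, so the relation rested on that male pair. Over the 7 male libraries r was 0.76, and over means of libraries with the same file-name number it was 0.82 (n = 6). Mlxip and Mlx ran in opposite directions with an r of -0.61 and a rho of -0.37 (permutation p 0.0548 and 0.298, adjusted 0.274 and 0.731), -0.70 without control replicate 2 and Glut1-KO replicate 4, -0.64 over the male libraries and -0.37 over the means by file-name number. Mlxipl and Mlx had an r of -0.53 and a rho of -0.59 (permutation p 0.116 and 0.0814, adjusted 0.386 and 0.718), with an r of -0.17 without control replicates 1 and 5, -0.78 over the male libraries and 0.54 over the means by file-name number. Txnip and Mlxip had an r of 0.21 and a rho of 0.16 (permutation p 0.568 and 0.651, adjusted 0.71 and 0.731), with -0.19 without Glut1-KO replicates 4 and 5, 0.02 over the male libraries and 0.72 over the means by file-name number. Arrdc4 and Mlxip had an r of 0.32 and a rho of 0.16 (permutation p 0.357 and 0.658, adjusted 0.71 and 0.731), with 0.66 without Glut1-KO replicates 1 and 5, 0.24 over the male libraries and 0.73 over the means by file-name number. The size of r thus varied with the libraries used in each of these pairs, and 0 of the 10 passed after adjustment.

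**Figure D4:**
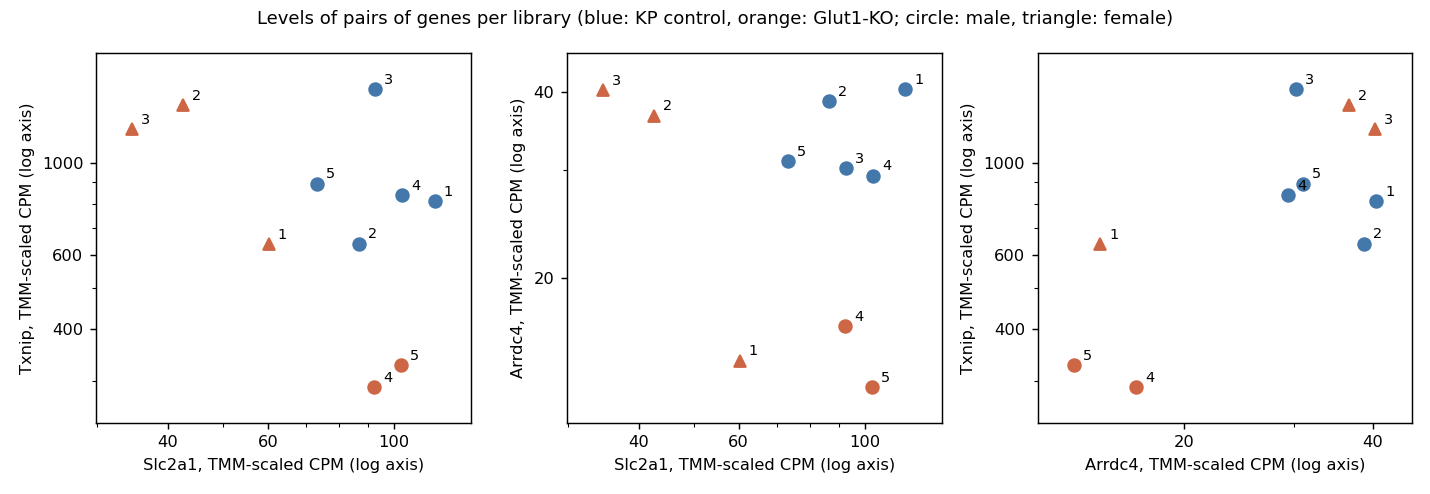
CPM of Txnip and of Arrdc4 against Slc2a1, and of Txnip against Arrdc4, 1 point per library on log axes (blue KP control, orange Glut1-KO, circles male, triangles female, numbers are replicates). Glut1-KO replicates 2 and 3 combine the least Slc2a1, at 42.5 and 34.6 CPM, with Txnip of 1378 and 1207 CPM, and replicates 4 and 5 sit low in Txnip and in Arrdc4.

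Libraries in which Txnip was low differed in other respects too. Both male libraries labelled Glut1-KO stood below the 8 others in 938 genes (5.89% of those tested) and above them in 935 (5.87%), and Txnip was the only one of the 5 genes in either set. Immediate-early and heat shock genes that rise during tissue dissociation, such as Fos and Hspa1a, summed to 4822 and 4345 CPM in Glut1-KO replicates 4 and 5, against 6245 to 8720 CPM in the 8 others. Of the 16 genes of that list 10 were lowest in this pair. Between the groups 15 of the 16 had log2 fold changes below 0 (median -0.35, 7 at an unadjusted limma p under 0.05, 0 called). In Jun, Atf3, Dusp1 and Nfkbia all 5 libraries labelled Glut1-KO lay below every control. Over all genes tested, 4.02% were lower at an unadjusted limma p under 0.05, and 1.85% had groups without overlap in either direction. Summed markers of endothelial cells (180 and 317 CPM, against 120 to 588 in the others), fibroblasts (198 and 411, against 63.8 to 370), leukocytes (1974 and 2461, against 988 to 11356, mostly Lyz2, which alveolar cells also express) and ciliated cells (269 and 322, against 210 to 532, mostly Tubb4b, a tubulin that many cells express) did not place the pair below the 8 others. Erythroid markers (751 and 407 CPM, against 189 to 1462) did not either. Club cell markers summed to 4111 and 1116 CPM, against 1755 to 9802 in the others, and proliferation genes to 379 and 457 CPM, against 419 to 793, so 1 library of the pair lay below the 8 others in each, replicate 5 in the former and replicate 4 in the latter. Of 10 proliferation genes 2 were lowest in the pair. The more specific ciliated marker Foxj1 was at 1.20 and 1.96 CPM in the pair, against 2.76 to 7.13 CPM in the female libraries labelled Glut1-KO and 1.74 to 54.9 CPM in controls. Between the groups, log2 fold changes were above 0 in 10 of 10 endothelial markers (median 0.67, 1 at an unadjusted limma p under 0.05) and in 8 of 10 tested leukocyte markers (median 0.74, 5 at an unadjusted limma p under 0.05). They were below 0 in 8 of 8 ciliated markers (median -0.95, 1 at an unadjusted limma p under 0.05), 4 of 5 club cell markers (median -0.67), 6 of 8 fibroblast markers (median -0.20), 4 of 5 erythroid markers (median -0.55) and 7 of 10 proliferation genes (median -0.11), and above 0 in 6 of 10 lung epithelial markers (median 0.13), with 0 called in each list. Over all 15922 genes tested, 7849 had log2 fold changes above 0 and 8073 below 0. At an unadjusted limma p under 0.05, 3.66% were higher and 4.02% lower. None of the listed markers was at 0 in all libraries, and Cd3e, which defines T cells, was at or near 0 in each. In bulk tissue fewer cells of a type and less RNA per cell cannot be told apart. The part of these differences in the Txnip values was not tested.

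An antisense gene spans all of Txnip. Gm15441 (ENSMUSG00000074398), a non-coding RNA on the opposite strand of chromosome 3 from 96555765 to 96566801, was looked at after the overlap was seen. It had 13 to 80 counts per library, where Txnip had 9436 to 61064. Group means were 1.29 ± 0.52 and 1.20 ± 0.53 CPM (SD, n = 5 each), and the difference on the log2 scale was -0.13 (SE 0.43, limma adjusted p 0.961). It was lowest in Glut1-KO replicate 4, at 0.399 CPM, and highest in control replicate 3, at 1.98 CPM, the libraries with the least and the most Txnip. Glut1-KO replicate 5, next to lowest in Txnip, had 1.31 CPM of Gm15441, whereas control replicates 1 and 2 had 0.759 and 0.798 CPM. The libraries were stranded but the strand setting of the counting is not given in the sources used here, so it cannot be told whether reads of both strands were kept apart. Mlx overlaps the end of Psmc3ip on the opposite strand, from 101091823 to 101092207, with the same limit.

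The genes whose log2 CPM followed Txnip most closely over the 10 libraries, among 13857 genes with a mean of at least 1 CPM, were Wipi1 (Pearson r 0.99), Abhd10 (0.95), Klhl24 (0.95), Mtr (0.95) and Atg14 (0.94). Wipi1 and Atg14 encode autophagy proteins and Mtr encodes methionine synthase. Wipi1 ranged from 31.0 to 71.2 CPM and Klhl24 from 74.6 to 217 CPM. Arrdc4 stood at rank 445 in that order. The genes most like Arrdc4 were Senp5, 0610009B22Rik and Ccnl1 (r 0.92, 0.91 and 0.91), with Txnip at rank 167. Those most like Mlxip were Fam181a, Exo1 and Fbxl18 (r 0.98, 0.98 and 0.97), those most like Mlx were Olfml2a, Zmat5 and Nod2 (0.94, 0.93 and 0.93), and those most like Mlxipl were Cldn3, Npepl1 and Kcnh7 (0.95, 0.94 and 0.94). With 10 libraries and so many genes, high values of r arise readily, and they are given as a description. Mlxip stood apart in control replicate 2, at 121 CPM against 78.5 to 87.7 CPM in the other controls. Its closest gene, Fam181a, ranged from 0.153 to 6.52 CPM. How far these values of r rest on single libraries was not tested.

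Among the α-arrestins, Txnip and Arrdc4 had the lowest log2 fold changes. Of 6 listed, Txnip and Arrdc4 among them, 5 were tested and 0 passed, with all 5 log2 fold changes below 0 (median -0.19, against -0.0049 over all genes tested, of which 8073 of 15922 were below 0). The 3 other tested members, Arrdc1, Arrdc2 and Arrdc3, had -0.09, -0.19 and -0.17. Arrdc2 averaged 7.84 ± 1.13 CPM in controls against 6.85 ± 0.84 CPM under the Glut1-KO label (SD, n = 5 each, limma adjusted p 0.802).

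Targets of MondoA and ChREBP went in both directions. Of 30 listed, Txnip and Arrdc4 among them, 24 were tested, 13 were higher and 11 lower, 0 passed, and the median log2 fold change was 0.01. Both male libraries labelled Glut1-KO stood below the 8 others in 2 of these 24, Txnip included, and above them in 3. Over all genes tested the shares were 5.89% and 5.87%. Acacb, which encodes the mitochondrial acetyl-CoA carboxylase, had the smallest p. It averaged 19.8 ± 5.0 CPM in controls against 30.8 ± 5.3 CPM under the Glut1-KO label (SD, n = 5 each), with 0.67 on the log2 scale (SE 0.19, limma adjusted p 0.432), and 3 of 5 lay above every control. Fasn, the gene of fatty acid synthase, and Pfkfb3, a regulator of glycolysis, had 0.30 (SE 0.20) and 0.18 (SE 0.13). On the other side stood Klf10, a Krüppel-like factor induced by glucose, at 62.4 ± 17.8 against 42.6 ± 13.4 CPM (SD, n = 5 each), with -0.55 (SE 0.24, limma adjusted p 0.644). Rgs16, a regulator of G protein signalling, had -0.97 (SE 0.45, limma adjusted p 0.665).

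Within the network of Max and Mlx, which includes the 3 factors described above, 13 of 13 genes were tested and 0 passed, 6 higher and 7 lower (median log2 fold change -0.04). Mnt, a repressor that pairs with Max or Mlx, averaged 34.4 ± 3.0 CPM in controls against 27.9 ± 4.1 CPM under the Glut1-KO label (SD, n = 5 each), with -0.31 (SE 0.13, limma adjusted p 0.616, 4 of 5 below every control). Myc, which competes for the same E-boxes, had 65.6 ± 11.9 and 46.8 ± 16 CPM (SD, n = 5 each), with -0.53 (SE 0.22, limma adjusted p 0.616, 3 of 5 below every control). Those 3 were the female libraries, at 33.8 to 37.7 CPM of Myc. The male libraries labelled Glut1-KO, at 55.3 and 71.1 CPM, lay within the control range. The repressor Mxi1 had -0.38 (SE 0.33), whereas Max, Mxd4 and Mycl had 0.22 (SE 0.15), 0.15 (SE 0.14) and 0.12 (SE 0.40).

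Among 14 genes for partners of Txnip and for its turnover, all tested, 9 were higher, 5 lower and 0 passed (median log2 fold change 0.07). Nlrp3, the inflammasome sensor that Txnip can bind, was the only one of them whose groups did not overlap. Over all genes tested, 1.85% had groups without overlap, counting both directions. Nlrp3 ran from 0.741 to 2.04 CPM in controls and from 2.20 to 4.60 CPM in the other group. The log2 fold change was 1.10 (SE 0.32, limma adjusted p 0.436), and the exact permutation test gave 0.00794, the lowest p possible with 5 against 5. Any gene whose groups do not overlap reaches that p. Nlrp3 is a gene of myeloid cells. Of the 10 tested leukocyte markers, 3 lay above every control in all 5 of these libraries as well, beside the same 1.85% of all genes. The part of such cells in the Nlrp3 value was not tested. Ddit4, an inhibitor of mTOR signalling that is reported to act with Txnip, had 102 ± 21.6 and 70.9 ± 17.6 CPM (SD, n = 5 each), with -0.54 (SE 0.19, limma adjusted p 0.555). The female libraries, at 51.0 to 66.1 CPM of Ddit4, lay below every control. The male libraries labelled Glut1-KO, at 79.8 and 96.4 CPM, lay within the control range. Thioredoxin itself, Txn1, had -0.27 (SE 0.20), and its reductase Txnrd1 -0.28 (SE 0.15), with 4 of 5 below every control. Prkab2 and Prkaa1, subunits of AMPK, the kinase that marks Txnip for degradation, had 0.31 (SE 0.18) and 0.20 (SE 0.16).

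The genes listed for glucose entry and phosphorylation, with Slc2a1 among them, were tested in 16 of 19 cases, 8 higher and 8 lower, with 0 past the threshold and a median log2 fold change of 0.00. Hk2, the hexokinase typical of tumours, averaged 149.6 ± 12.6 CPM in controls against 129.97 ± 38.4 CPM under the Glut1-KO label (SD, n = 5 each), with -0.24 (SE 0.17, limma adjusted p 0.768). The female libraries, at 102 to 115 CPM of Hk2, lay below every control (132 to 167 CPM). The male libraries labelled Glut1-KO had 132 and 195 CPM. The transporter genes Slc2a3, Slc5a1 and Slc2a13 had 0.80 (SE 0.39), 1.75 (SE 0.56) and 0.68 (SE 0.30), with limma adjusted p-values of 0.677, 0.482 and 0.644. Slc2a3 averaged 190 ± 82.9 CPM in controls and 348 ± 205 CPM under the Glut1-KO label (SD, n = 5 each). Slc5a1, at 1.94 ± 0.95 and 5.78 ± 2.28 CPM, and Slc2a13, at 0.661 ± 0.210 and 1.05 ± 0.33 CPM, were far lower. G6pdx, the entry enzyme of the pentose phosphate pathway, had -0.23 (SE 0.23).

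**Figure D5:**
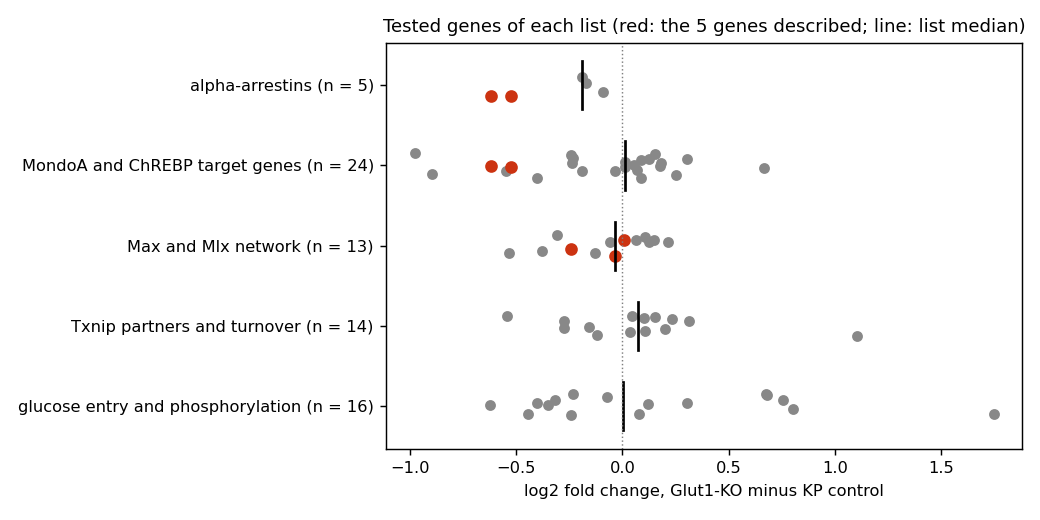
Log2 fold change, Glut1-KO minus KP control (limma), of every tested gene in the 5 pathway lists, 1 point per gene, with the vertical line at the median of the list and the 5 genes described here in red. Medians lie between -0.19 and 0.07, and Txnip and Arrdc4 are the lowest 2 of the α-arrestins.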

How the data were processed

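The authors made stranded mRNA libraries and sequenced them from one end (NextSeq). Reads were trimmed (Cutadapt) and placed on mm10 (HISAT2). The submitters' processing notes also name bcl2fastq 2.17, cutadapt 1.4.2, featureCounts 1.4.4 and edgeR. The strand setting and annotation release are not given in the sources used here. The deposited values are raw read counts per gene, without normalization, in 1 table whose 10 columns equalled the 10 single-library files. A deposited table of log2 values was not used.

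Genes were kept by edgeR 4.0.16 filterByExpr (minimum count 10, minimum total 15), leaving 15922. After TMM scaling, voom weights were computed at a prior count of 0.5, and limma 3.58.1 was run in R 4.3.3 on the group alone, with Benjamini-Hochberg adjustment across the kept genes. The study names TMM, voom and limma without stating model terms. Exact permutation tests (2-sided) compared mean log2 CPM. Correlation tests over 10 libraries used 100000 permutations (SciPy 1.17.1), and smaller ones were exact. Alternatives were edgeR's quasi-likelihood test, DESeq2 1.42.0, other scalings, filters, covariates and blocks, and leaving out each library. The scripts were tested on simulated data.

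Exon lengths and positions were read from the GENCODE M21 annotation (GRCm38, also called mm10), which held 96.6% of the identifiers. The genes, lists and tests were chosen with earlier results of these data known, and the pathway lists were written from general knowledge. Named in the text are the 5 genes and Slc2a1, from each pathway list and direction the 3 tested genes of lowest p, the 5 genes most like Txnip and the 3 most like each other gene, and others where said or as markers.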

Additional observations from a re-analysis of the deposited data

Results flagged for a closer look

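In groups of 5 libraries, a value was singled out when its gap to the nearest library exceeded 0.71 of the range of its group. This held in 5 of 62 groups of values, where chance gives about 1 in 20. Mlxip stood at 121 CPM in control replicate 2, against 78.5 to 87.7 CPM in the other controls. Mlx stood at 62.5 CPM in Glut1-KO replicate 1, while the others under that label had 50.5 to 51.9 CPM. Mxi1 stood at 70.2 CPM in Glut1-KO replicate 4, against 21.8 to 32.5 CPM, and Slc2a13 at 1.64 CPM in Glut1-KO replicate 2, against 0.797 to 0.949 CPM. Control replicate 2 also had the highest total, 49.8 M counts (M, mega), against 40.1 to 41.4 M in the other controls.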

How the results depend on the processing

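Under every alternative run, 0 of the 5 genes and not Slc2a1 passed the threshold. Arrdc4 stayed below 0 in all 23, between -1.19 and -0.26 (limma, edgeR or DESeq2 adjusted p 0.315 to 0.893). Txnip ranged from -1.55 to 0.19 (adjusted p 0.222 to 0.956), and sex as a covariate gave -1.55 as well. Its direction reversed to 0.19 with female Glut1-KO libraries against the controls, which also turned Mlx to 0.016. Library totals in place of TMM turned Mlxip to -0.00070 (exact permutation p 1 in place of 0.944), while a sex term turned it to -0.12 and male libraries alone to -0.13. The latter settings turned Slc2a1 to 0.061 and 0.060. Leaving out 1 library gave -0.80 to -0.23 for Txnip, -0.85 to -0.42 for Arrdc4, -0.59 to 0.011 for Mlxipl, -0.037 to 0.12 for Mlxip, -0.15 to 0.068 for Mlx and -0.81 to -0.42 for Slc2a1. Mlxipl turned only without control replicate 5. The Pearson r with Slc2a1 turned to 0.33 for Arrdc4 without Glut1-KO replicates 2 and 3, and to 0.33 for Mlxipl over means of the file-name numbers. Mlxipl was below the filter of 20 TPM and has no value there. For these reversals the cause was not tested. The male and female settings use fewer libraries. With no female control, the sex term rests on the same male libraries as the male setting and is no separate check of it.

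Genes called higher and lower were 0 and 0 with limma and edgeR's quasi-likelihood test, against 108 and 102 with DESeq2. They were 1 and 2 with sex as a covariate, 1 and 0 with male libraries only, 4 and 5 with female Glut1-KO libraries only, 0 and 2 with libraries of 1 number summed, and 0 to 1 lower when leaving out 1 library, the 1 without control replicate 3. With the replicate number as a block, Txnip had -0.56 and Arrdc4 -0.55 and 0 genes were called. The numbers do not pair the samples, since deviations of same-numbered libraries correlated between -0.13 and 0.20. Low counts limit Mlxipl (15 to 90 reads per library), and the split within the Glut1-KO group limits Txnip and Arrdc4.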
